A study of Mus musculus with 18 samples.

Results

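The immediate-early genes *Fos*, *Fosb*, *Jun*, *Junb*, *Atf3*, *Egr1*, *Klf4*, *Ier2*, *Zfp36* and *Cyr61* were followed across 18 RNA-seq libraries of whole mouse lenses. They are 10 of the 40800 Ensembl genes in the count table, and each was found by its symbol in the gene-name column. The genes were chosen by their high counts in 1 of the 14-day wild-type (WT) libraries, *Cryab*-WT replicate 1, and their level there is therefore described without a test. The mice were of the C57BL/6J strain. The *Cryaa*-R49C line carries a knock-in missense mutation in αA-crystallin and was examined at 2 days of age in 3 genotypes, with no mutant allele (*Cryaa*-WT), with 1 (*Cryaa*-R49C-het) or with 2 (*Cryaa*-R49C-homo). The *Cryab*-R120G line carries a knock-in missense mutation in αB-crystallin and was examined at 14 days of age in the matching genotypes, named *Cryab*-WT, *Cryab*-R120G-het and likewise *Cryab*-R120G-homo. Each of the 6 groups had 3 libraries. Line and age changed together and cannot be told apart. Every library pooled several lenses, so a p-value measures the spread between pools, and in such bulk RNA fewer cells of a type and less RNA per cell cannot be told apart. A gene count does not read the mutated codon, so the counts do not check the genotypes.

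Immediate-early genes are transcribed within minutes of a stimulus such as a growth factor, wounding or stress, because the factors that switch them on are already present in the resting cell and need only be activated. Their transcripts are short-lived, so a high level is usually brief. In the lens, Fos and Jun family genes are known to respond to growth factors and injury in the epithelium, the single layer of dividing cells over the mass of fibre cells. *Fos*, *Fosb*, *Jun*, *Junb* and *Atf3* encode basic leucine zipper proteins, of which Fos and Jun proteins pair to form the transcription factor AP-1. *Atf3* belongs to the ATF/CREB family and is also a target of ATF4 in the integrated stress response. *Egr1* and *Klf4* encode zinc finger transcription factors, *Zfp36* encodes tristetraprolin, which binds AU-rich elements and speeds the decay of messenger RNA, and *Cyr61* (*Ccn1* in newer annotation) encodes a secreted matrix protein of the CCN family.

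Sequence before the start of transcription was examined for elements known from such genes. RefSeq promoters of the GRCm38.p6 build were at hand for 8 of the 10 genes, all but *Egr1* and *Ier2*, and 250 bases before each start were printed for 4 of them. Those 4 were taken because their promoters hold a match and because their levels behaved differently in the libraries described below, where *Fos* and *Cyr61* varied together and the correlation of *Atf3* and *Zfp36* with the rest was lower. The motifs were the CArG box bound by serum response factor, TGACGT of the cyclic AMP response element, TATAAA, the AP-1 site TGAGTCA and TTGCATCA, an element of the ATF4 type. They were picked with the sequences in view and searched on both strands over the 250 bases before the start only. Capitals mark the matches, and a match on the opposite strand reads as its reverse complement. The *Fos* promoter lies at chr12:85473640-85473889 on the + strand, before a gene annotated at chr12:85473890-85477273. The *Atf3* promoter lies at chr1:191183334-191183583 on the - strand, inside the span of the longer gene model at chr1:191170296-191218039. The *Zfp36* promoter lies at chr7:28379229-28379478 on the - strand, where the gene model covers chr7:28376784-28380253. The *Cyr61* promoter lies at chr3:145649986-145650235 on the - strand, before a gene annotated at chr3:145646976-145649981.
Fos: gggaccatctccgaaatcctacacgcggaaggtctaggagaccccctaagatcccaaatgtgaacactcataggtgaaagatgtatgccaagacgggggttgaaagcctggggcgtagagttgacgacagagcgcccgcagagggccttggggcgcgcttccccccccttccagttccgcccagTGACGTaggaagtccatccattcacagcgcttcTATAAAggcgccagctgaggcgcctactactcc
Atf3: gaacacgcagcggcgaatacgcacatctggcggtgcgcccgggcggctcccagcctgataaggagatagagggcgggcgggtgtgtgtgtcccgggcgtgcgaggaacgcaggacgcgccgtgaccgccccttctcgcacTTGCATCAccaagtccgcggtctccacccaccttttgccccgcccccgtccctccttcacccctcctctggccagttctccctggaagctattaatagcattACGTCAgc
Zfp36: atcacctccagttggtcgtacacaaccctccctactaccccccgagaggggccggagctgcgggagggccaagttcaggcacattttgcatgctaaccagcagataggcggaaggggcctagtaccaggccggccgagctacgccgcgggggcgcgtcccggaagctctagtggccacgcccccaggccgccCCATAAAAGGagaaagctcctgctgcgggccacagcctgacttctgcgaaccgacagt
Cyr61: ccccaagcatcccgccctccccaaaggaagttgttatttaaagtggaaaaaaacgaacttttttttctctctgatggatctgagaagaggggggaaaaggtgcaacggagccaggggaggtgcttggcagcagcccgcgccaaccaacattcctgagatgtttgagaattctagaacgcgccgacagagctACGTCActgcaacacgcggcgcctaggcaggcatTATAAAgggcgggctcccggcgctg

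TGACGT was present in 3 of the 8 promoters, beginning 66 bases before the start in *Fos* and, on the opposite strand, 59 bases before it in *Cyr61* and 8 bases before it in *Atf3*. Of all 32851 promoters in the table, 6.47% held it. TATAAA began 33 bases before the start in *Fos* and 25 bases before it in *Cyr61*, against 12.4% of all promoters with a match. The CArG box was found in *Zfp36* alone among the 8, at 58 bases before the start and in 1.47% of all promoters. TTGCATCA was found in *Atf3* alone among them, at 110 bases before the start and in 0.791% of all promoters. No match to TGAGTCA was found, against 4.46% of all promoters. The searched motifs did not overlap in these 4 promoters.

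Most of the 10 genes have short gene models. Their median span in the GENCODE vM21 annotation was 3852.5 bases, from 1522 for *Ier2* to 47744 for *Atf3*, against a median of 26090 bases for the 12849 protein-coding genes tested. At most 4 exons made up 8 of the 10 (80.0%), against 20.9% of those genes. The AU-rich heptamer TATTTAT stood at least once in the 3′ untranslated region of 6 of the 10 (60.0%), against 30.6% of those genes. Parts of 4 genes are overlapped by another gene on the opposite strand, over 689 bases for *Jun* (*Junos*), 351 for *Junb* (*Prdx2*), 108 for *Atf3* (*Gm24748*) and 1274 for *Zfp36* (*Gm44710*). The strand setting of the counting is not given in the sources used here, and without strand the reads of such partners cannot be told apart.

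Library totals lay between 14272174 and 29639719 counts. Levels are given as CPM (each count as a share of its library total, on the usual scale) after scaling by edgeR's trimmed mean of M values (TMM). The lens fibre markers were abundant at both ages, with summed levels of 58331 to 233907 CPM at 2 days and 525363 to 722277 CPM at 14 days, the library with the high early genes included. *Gm42418*, a transcript that overlaps ribosomal RNA sequence, took 2.53% to 42.6% of the counts of a library and 21.4% of *Cryab*-WT replicate 1.

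All 10 immediate-early genes reached their highest level of the 18 libraries in *Cryab*-WT replicate 1. Their summed level there was 2004 CPM, against 12.4 and 13.6 CPM in the other two WT libraries of that age, 11.4 to 20.7 CPM over all other 14-day libraries and 13.1 to 83.7 CPM over the 2-day libraries. The ratios that follow compare *Cryab*-WT replicate 1 with the other two *Cryab*-WT libraries and carry exact 95% intervals for counting error only.

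*Fos*, the founding member of its family, had 7803 counts in *Cryab*-WT replicate 1 and 7 and 4 counts in replicates 2 and 3. Its level was 859 CPM against 0.467 and 0.297 CPM, a ratio of 2224 (interval 1242 to 4457). *Fosb* had 872 counts there and 0 in both other WT libraries. Its level of 96.0 CPM was at least 911-fold higher than a floor of 3 counts over those libraries together. Both Fos family genes were thus near or at the lowest level that these totals can show in the other WT pools.

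*Jun*, which can pair with itself or with Fos proteins, had 1807 counts in replicate 1 and 80 and 79 in the other two. Its ratio was 35.6 (30.3 to 42.2). *Junb* had 1115 counts against 2 and 1, a ratio of 1165 (398 to 5659). *Jun* thus kept a measurable level in the other WT pools, while *Junb* was near 0 counts in them. *Atf3* had 1231 counts against 5 and 3, a ratio of 482 (244 to 1120).

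*Egr1* had 2612 counts against 18 and 21, or 288 CPM against 1.20 and 1.56 CPM, a ratio of 210.0 (153 to 296). *Klf4*, a regulator of epithelial differentiation, had 378 counts against 5 and 2, a ratio of 169 (81.4 to 424). *Ier2*, named for its immediate-early response, had 642 counts against 7 and 8, a ratio of 134 (80.7 to 241). The intervals of these 3 genes overlapped, but they cover counting error alone and not the spread between libraries. *Zfp36* had 1103 counts against 64 and 39, a ratio of 33.6 (27.4 to 41.5), the smallest of the 10 and close to that of *Jun*. *Cyr61* had 641 counts against 16 and 10, a ratio of 77.3 (52.3 to 119).

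**Figure D1:**
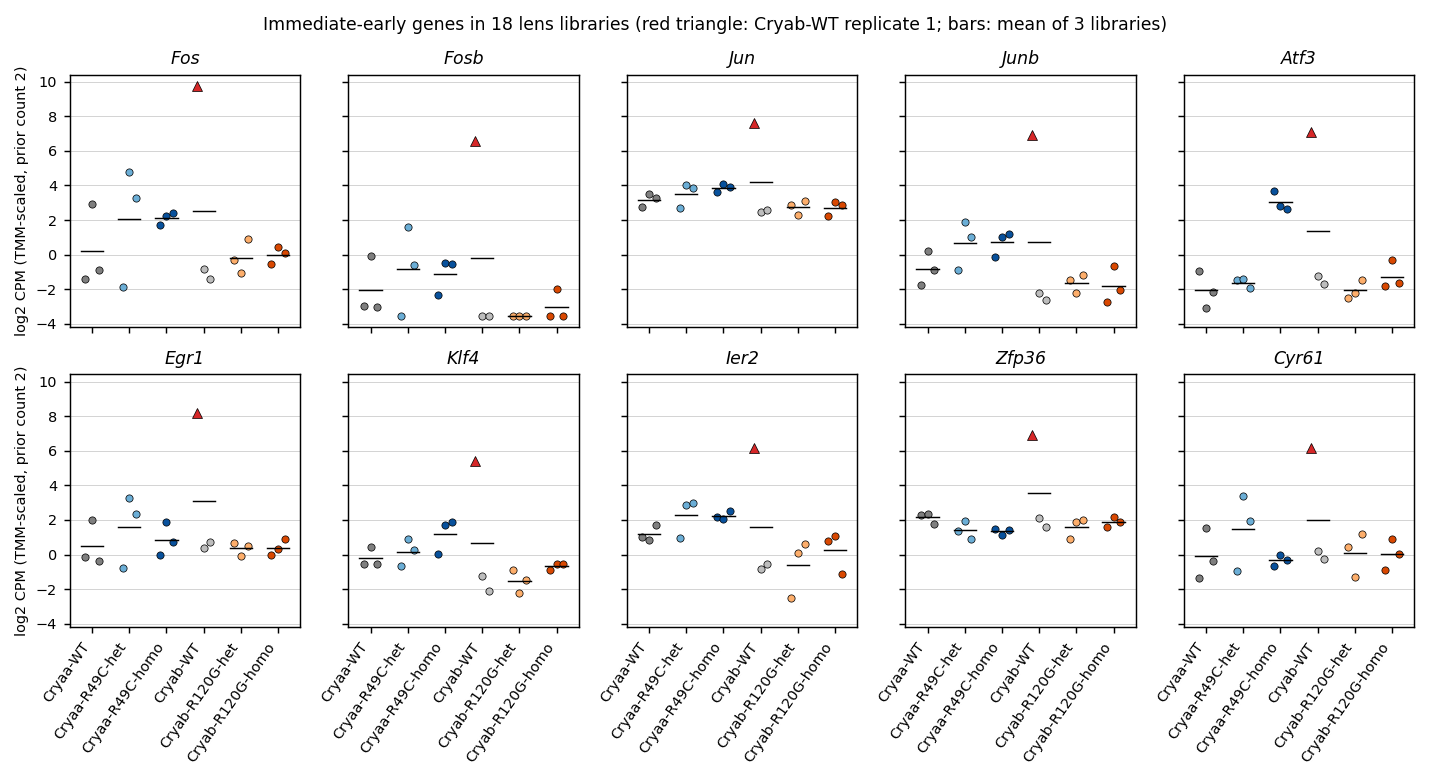
Level of each of the 10 genes in the 18 libraries on a log2 CPM axis (prior count 2), with 1 panel per gene, 1 point per library and a bar at the mean of each group of 3. In each panel the highest point is *Cryab*-WT replicate 1 (red triangle), as for *Fos* at 859 CPM, and the remaining points of *Fos* reach 27.7 CPM.

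The gap to the next library was narrower and differed between genes. For *Fos*, *Fosb*, *Egr1* and *Junb* the second-highest library was *Cryaa*-R49C-het replicate 2, a 2-day pool, and *Cryab*-WT replicate 1 stood 30.0-fold to 34.1-fold above it. *Cyr61* was also second-highest in that pool, at 10.4 CPM, and the gap was 6.79-fold. For *Jun*, *Atf3* and *Klf4* the next library was a *Cryaa*-R49C-homo pool, with gaps of 11.7-fold, 10.7-fold and 11.8-fold. For *Ier2* it was *Cryaa*-R49C-het replicate 3, with a gap of 9.18-fold. For *Zfp36* it was *Cryaa*-WT replicate 2, with a gap of 24.1-fold.

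Per kilobase of gene, *Fos* led in *Cryab*-WT replicate 1 at 365 CPM per kb. The next 5, from *Atf3* at 68.3 down to *Jun* at 62.4 CPM per kb, lay close together, and *Klf4* was lowest at 13.6 CPM per kb. The order in the other libraries was a different one. Over the 2-day libraries the median was highest for *Jun* at 3.85 CPM per kb, followed by *Ier2* at 2.68 and *Fos* at 2.00, and it was lowest for *Atf3* at 0.143 CPM per kb. Over the 14-day libraries without *Cryab*-WT replicate 1, *Jun* at 2.03 and *Zfp36* at 2.02 CPM per kb led, and *Fosb* had a median of 0. In both orders, the ranges over libraries of each gene and the next overlapped. *Fosb* had 0 counts in 7 of those 8 libraries and 3 counts in *Cryab*-R120G-homo replicate 2.

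Of 38 further early-response genes with a count in any library, such as phosphatases of the *Dusp* family and nuclear receptors of the *Nr4a* family, 35 lay more than 1 log2 unit above the other two WT libraries in *Cryab*-WT replicate 1, and 31 were highest of the 18 there. The same held for 13.1% and 7.86% of all genes with a count. *Nfkbia*, the inhibitor of NF-kappaB, was at 228 CPM against 8.13 and 7.49 CPM. *Dusp1*, a phosphatase of MAP kinases, was at 161 CPM against 15.1 and 11.9 CPM. *Nr4a1* was at 21.4 CPM against 0.200 and 0.667 CPM. Members of the list not more than 1 log2 unit above were *Fosl2* (log2 difference 0.59), *Gadd45b* (0.48) and *Npas4*, which had 0 counts there. *Gadd45b* was still highest of the 18 there, at 226 CPM against at most 198 CPM elsewhere. The 22 genes of the kinases and transcription factors that act upstream had 3 above 1 log2 unit (13.6%) and a median difference of 0.13. *Srf*, which encodes serum response factor, was the highest of the 3, at 2.97 CPM against 0.533 and 1.04 CPM, and the others were *Rps6ka1* and *Wwtr1*. Of 10 heat shock genes, 2 lay above 1 log2 unit. They were *Hspa1a*, with 33 counts against 3 and 1, and *Hspa1b*, with 11 counts against 0 and 0. Among 12 acute cytokine and adhesion genes, *Cxcl1* had 122 counts against 2 and 0, *Cxcl2* had 21 against 0 and 0, *Ccl2* had 27 against 2 and 5, and the other 9 had 0 to 9 counts in that library. Counted by the same rule, 10 of these 12 lay above 1 log2 unit, most of them on a handful of reads. Of 16 targets of ATF4 and CHOP, the transcription factors of the integrated stress response, 2 lay above 1 log2 unit, *Ddit3* (1.10) and *Chac1* (3.00, at 7.82 CPM against 0.600 and 1.33 CPM).

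Some markers of other cell types were also high in *Cryab*-WT replicate 1, and they reached like or higher levels in libraries where the early genes were low. The photoreceptor and retina markers summed to 882 CPM in *Cryab*-WT replicate 1 against 24.1 and 93.0 CPM in the other two WT libraries. In *Cryab*-R120G-homo replicate 1, however, the same markers summed to 1367 CPM, and the 10 early genes summed to 11.8 CPM. In *Cryab*-R120G-homo replicate 2 the sums were 696 and 20.7 CPM, and in *Cryab*-R120G-het replicate 1 they were 685 and 13.3 CPM. Erythrocyte markers were at 146 CPM against 15.6 and 24.3 CPM, and reached 451 CPM in *Cryab*-R120G-het replicate 1. Macrophage markers were at 3.08 CPM against 1.27 and 1.33 CPM, within the 1.27 to 8.71 CPM of the other 14-day libraries. Of these 12 markers, 4 lay above 1 log2 unit (33.3%, against 13.1% of all genes), on 0 to 9 counts each in *Cryab*-WT replicate 1, where *Adgre1*, *Aif1* and *Ptprc* had 0 counts, as against 0 or 1 in the other two WT libraries. Lens epithelium markers were at 1625 CPM against 1562 and 1595 CPM. The part of these cells in the level of the early genes was not tested.

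**Figure D2:**
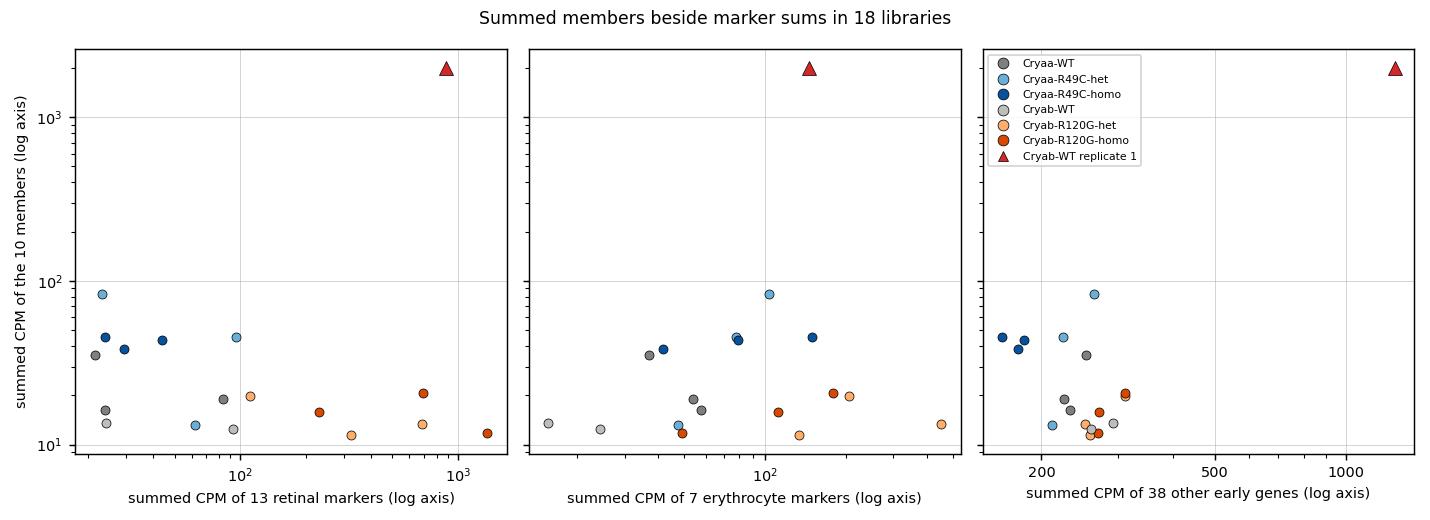
Summed CPM of the 10 genes in each library (vertical log axis) against the summed CPM of retinal markers, of erythrocyte markers and of the 38 further early-response genes (horizontal log axes), with 1 point per library coloured by group. *Cryab*-WT replicate 1 (red triangle) stands alone at 2004 CPM on the vertical axis, and other 14-day libraries with a like or higher photoreceptor sum lie at 11.8 to 20.7 CPM.

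Across all 18 libraries, the 5 genes whose log2 level was most like the mean of the 10, among 10408 genes with a mean of at least 1 CPM, were *Nfkbia* (r = 0.935), *Id1* (0.916), *Nfkbiz* (0.894), *Socs3* (0.892) and *Adamts1* (0.892). These correlations rest largely on the 1 high library, which all of them share. Of the 25 most like, 10 were on the list of further early-response genes. With that library left out and group means removed, the 5 most like over 17 libraries were *Pmaip1* (r = 0.870), *Gpd1* (0.853), *Fabp5* (0.846), *Csad* (0.837) and *Cd44* (0.834), and 1 of the 25 most like, *Dusp1*, was on that list.

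The 2-day libraries differed from each other in the same genes at a lower level. *Fos* was at 0.298, 7.39 and 0.455 CPM in *Cryaa*-WT replicates 1, 2 and 3, at 0.191, 27.7 and 9.42 CPM in *Cryaa*-R49C-het, and at 3.17, 4.71 and 5.32 CPM in *Cryaa*-R49C-homo. Replicate 2 of WT and replicates 2 and 3 of het were high, the remaining WT and het pools were low, and the 3 homo pools lay between them. *Egr1* was at 0.809, 3.91 and 0.700 CPM in WT, 0.490, 9.57 and 5.06 CPM in het and 0.880, 3.55 and 1.56 CPM in homo, with the same WT and het pools high. *Cyr61* was at 0.298, 2.77 and 0.700 CPM in WT, 0.436, 10.4 and 3.69 CPM in het and 0.550, 0.911 and 0.722 CPM in homo. The homo pools were thus all below the 3 high WT and het pools for *Cyr61*.

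After group means were removed, the standard deviation of *Fos* over the 9 2-day libraries was 2.43 on the log2 scale, a spread that 0.0215% of the 13938 genes tested reached. *Fosb* (1.87), *Egr1* (1.55), *Cyr61* (1.54) and *Junb* (1.08) were each reached or passed by under 1% of genes (0.0646%, 0.143%, 0.158% and 0.890%). The median gene had 0.381. *Klf4* (0.822), *Ier2* (0.711), *Atf3* (0.703) and *Jun* (0.497) lay between, and *Zfp36* (0.363) varied no more than the median gene. The 10 genes did not vary as a single block. Over the 17 libraries without *Cryab*-WT replicate 1, the deviation of a gene from its group mean correlated with the mean deviation of the other 9 at r = 0.917 for *Junb*, 0.916 for *Cyr61*, 0.899 for *Fos*, 0.896 for *Fosb*, 0.847 for *Jun*, 0.784 for *Egr1* and 0.633 for *Klf4*. For *Ier2* and *Zfp36* it was 0.342 and 0.324, and for *Atf3* it was -0.12. These are descriptions over libraries that share their totals and scaling. Over the 14-day libraries without *Cryab*-WT replicate 1, the spread of *Fos* was 0.719 and that of *Ier2*, at 1.30, was the widest of the 10.

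**Figure D3:**
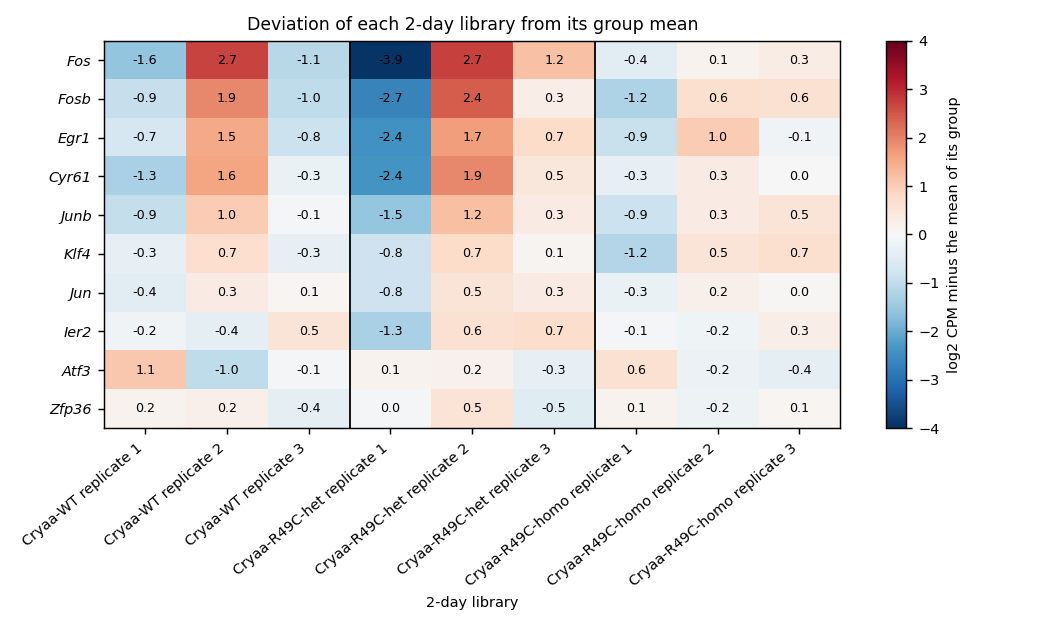
Deviation of each gene's log2 CPM from its group mean in the 9 2-day libraries, with genes as rows, libraries as columns and the value written in each cell. *Cryaa*-WT replicate 2 stands above its group mean by 1.02 to 2.69 for *Fos*, *Fosb*, *Egr1*, *Cyr61* and *Junb* and by 0.21 for *Zfp36*, and below it for *Atf3* (-1.004) and *Ier2* (-0.36).

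Comparisons between genotypes used edgeR's quasi-likelihood test with Benjamini-Hochberg adjustment over the 13938 genes that passed a filter on low counts, and an adjusted p of at most 0.05 was the threshold. All 10 genes passed that filter, with and without *Cryab*-WT replicate 1. Comparisons among 2-day lenses, and of *Cryab*-R120G-homo with *Cryab*-R120G-het, were fitted on all 18 libraries, and those that involve *Cryab*-WT on 17 libraries without replicate 1. Comparisons that share a group share its libraries and are given side by side.

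Whether 1 mutant allele of *Cryaa* alters lens expression was asked by comparing *Cryaa*-R49C-het with *Cryaa*-WT. None of the 10 genes passed the test, against 0.00717% of all genes. The log2 fold change was 2.17 ± 2.06 (SE, n = 3 against 3) for *Fos* and 1.91 ± 1.49 for *Cyr61*, with adjusted p values from edgeR's quasi-likelihood test of 0.849 and 0.836. For *Zfp36* it was -0.73 ± 1.02 (adjusted p = 0.884). The median over the 10 was 1.38 against -0.014 over all genes, and 0.42 without *Cryaa*-R49C-het replicate 2. For no gene of the 10 did the groups separate, against 21.9% of all genes. An unadjusted p under 0.05 was reached by 0 of the 10 with edgeR, against 5.08% of all genes, and by 0 with DESeq2, which gave no adjusted p for 8 of them. With *Cryab*-WT replicate 1 left out of the fit, the SE of *Junb* fell from 1.78 to 0.64 and that of *Zfp36* from 1.02 to 0.30. An unadjusted p under 0.05 was then reached by 3 of the 10, against 5.42% of all genes, and again 0 of the 10 and 0.00717% of all genes passed.

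The comparison of *Cryaa*-R49C-homo with *Cryaa*-WT asked for the effect of 2 mutant alleles. *Atf3* was the gene of the 10 that differed most. It had 10, 1 and 4 counts in *Cryaa*-WT, 10, 9 and 7 in *Cryaa*-R49C-het and 578, 224 and 163 in *Cryaa*-R49C-homo. In CPM these were 0.426, 0.0337 and 0.140 in WT, 0.272, 0.284 and 0.174 in het and 12.7, 7.04 and 6.19 in homo. Every homo pool was above every WT and het pool, which 13.7% of all genes also showed in either direction, and WT and het overlapped. The log2 fold change was 5.50 ± 1.93 against WT and 5.14 ± 1.80 against het, with adjusted p = 0.0988 and 0.105 by edgeR's quasi-likelihood test, so *Atf3* did not pass in the fit on all 18 libraries. In that fit the quasi-likelihood dispersion of *Atf3* was 21.2, against a median of 0.807 over all genes. With *Cryab*-WT replicate 1 left out, which takes no part in either contrast, that dispersion was 1.25 and the log2 fold changes were 5.49 ± 0.53 and 5.14 ± 0.50, with adjusted p = 3.36e-07 and 4.57e-07. Leaving out each 2-day library as well kept *Atf3* past the threshold in 6 of 6 fits of either contrast, with adjusted p from 1.65e-07 to 7.10e-06 against WT and from 1.99e-07 to 2.09e-05 against het.

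*Jun*, *Ier2* and *Zfp36* were the other genes of the 10 whose homo and WT pools did not overlap, which 24.5% of all genes also showed. *Jun* was at 6.73, 11.3 and 9.49 CPM in WT and 12.3, 17.02 and 15.0 CPM in homo (log2 fold change 0.68 ± 1.01). *Ier2* was at 1.96, 1.69 and 3.15 CPM in WT and 4.36, 4.08 and 5.59 CPM in homo (1.04 ± 1.32). *Zfp36* was at 4.85, 5.03 and 3.36 CPM in WT and 2.69, 2.10 and 2.58 CPM in homo (-0.84 ± 1.03). None of these 3 passed edgeR's quasi-likelihood test, with adjusted p of 0.746, 0.698 and 0.686. Without *Cryab*-WT replicate 1 the values were 0.68 ± 0.30 for *Jun*, 1.04 ± 0.52 for *Ier2* and -0.84 ± 0.30 for *Zfp36*, with adjusted p of 0.154, 0.227 and 0.0785. *Zfp36* thus had lower values in homo, opposite to the other 3 separated genes.

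*Klf4* was at 0.596, 1.28 and 0.595 CPM in WT and 0.924, 3.23 and 3.53 CPM in homo, which overlap in *Cryaa*-R49C-homo replicate 1. Its log2 fold change was 1.60 ± 1.36 (adjusted p = 0.535 by edgeR's quasi-likelihood test). With *Cryab*-WT replicate 1 left out it was 1.61 ± 0.49 (adjusted p = 0.0393), and with each 2-day library left out as well it passed in 2 of 6 fits, with adjusted p from 0.00129 to 0.151. In all, 0 of the 10 genes passed on 18 libraries, against 9.79% of all genes, and 2 (*Atf3* and *Klf4*) on 17, against 10.6%. An unadjusted p under 0.05 was reached by 1 of the 10 on 18 libraries (24.3% of all genes), by 5 on 17 (25.2%) and by 0 with DESeq2, which gave no adjusted p for 8. The median over the 10 was 0.67 against 0.0047 over all genes, and it was 0.33, 1.72 and 0.43 without *Cryaa*-WT replicate 1, 2 and 3.

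Against *Cryaa*-R49C-het, 0 of the 10 passed in homo on 18 libraries, against 8.32% of all genes, and 1 (*Atf3*) on 17, against 9.2%. *Cyr61* had a log2 fold change of -2.73 ± 1.56 (adjusted p = 0.319 by edgeR's quasi-likelihood test) and *Fos* of -1.50 ± 2.00 (adjusted p = 0.703). For *Cyr61* the value without *Cryab*-WT replicate 1 was -2.73 ± 0.98 (adjusted p = 0.104). *Cryaa*-R49C-het replicate 1, at 0.436 CPM, was below the 3 homo pools while the other two het pools were above them, and without that het library as well *Cyr61* passed at -3.27 (adjusted p = 0.0203). An unadjusted p under 0.05 was reached by 1 of the 10 on 18 libraries (23.7% of all genes), by 3 on 17 (24.6%) and by 1 with DESeq2, which gave no adjusted p for 8. *Atf3* was the only gene of the 10 whose homo and het pools did not overlap, against 22% of all genes.

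**Figure D4:**
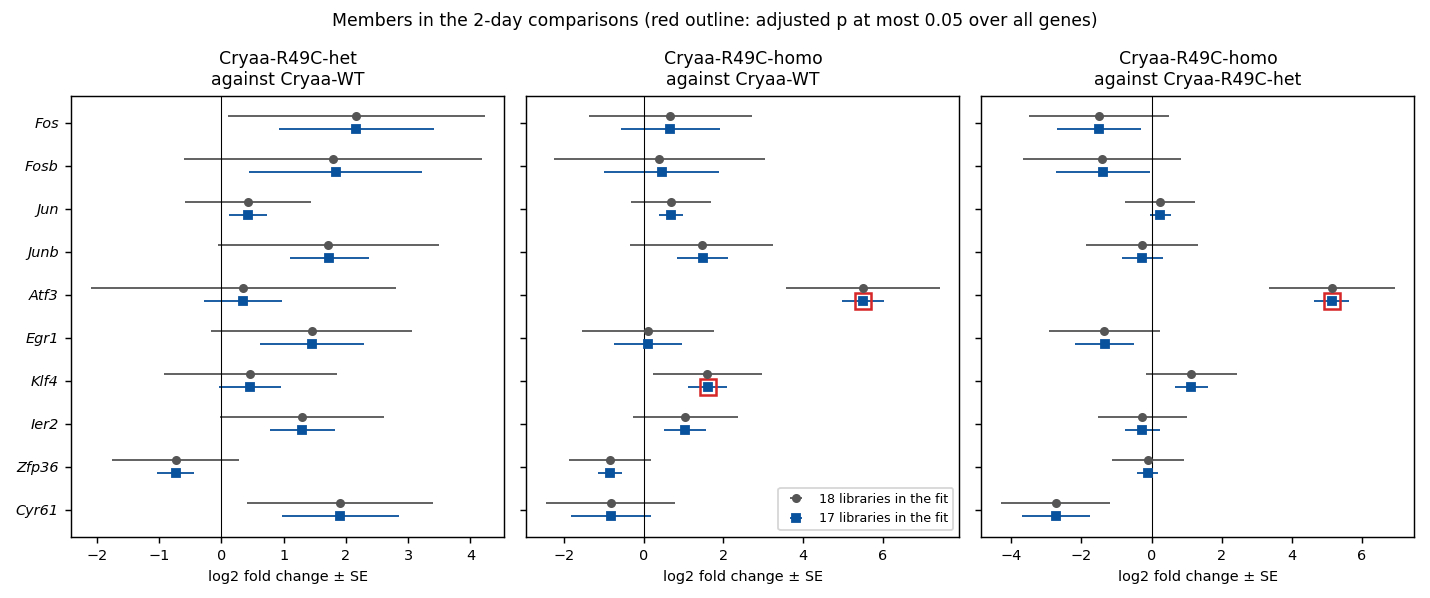
Log2 fold change of each of the 10 genes between 2-day genotypes, with bars of 1 SE, from the fit on all 18 libraries and from the fit on 17 without *Cryab*-WT replicate 1. The estimates nearly coincide and the bars are shorter in the 17-library fit, where *Atf3* lies at 5.49 against WT with an SE of 0.53. A red outline marks an adjusted p of at most 0.05.

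Targets of ATF4 and CHOP were also higher in *Cryaa*-R49C-homo lenses. Of 16 tested, 11 rose and none fell against *Cryaa*-WT by edgeR's quasi-likelihood test, where 9.79% of all genes passed in either direction, with a median log2 fold change of 1.92 against 0.0047 over all genes. *Ddit3*, which encodes CHOP, was at 3.32 to 3.91 CPM in WT, 3.00 to 3.19 CPM in het and 109 to 166 CPM in homo, and rose by a log2 fold change of 5.17 (adjusted p = 1.99e-10). *Trib3*, a pseudokinase induced by CHOP, rose by 9.21 (adjusted p = 3.16e-08), and *Sesn2*, a stress-induced sestrin, by 3.18 (adjusted p = 1.03e-06). The library with the highest *Atf3* was another one. In *Cryab*-WT replicate 1, where *Atf3* was at 136 CPM, *Ddit3* was at 9.03 CPM, against 4.40 and 3.93 CPM in the other two WT libraries. Some markers of cell types also passed between homo and *Cryaa*-WT, where 9.79% of all genes did. Of 12 macrophage markers 2 (*C1qa* and *Aif1*) rose, with summed levels of 26.1 to 51.2 CPM in homo and 10.1 to 24.7 CPM in WT. Of 13 vessel and mesenchyme markers 3 rose and 1 fell, of 10 lens fibre markers 3 fell, and of 11 pigment and ciliary markers 4 fell. The homo pools also differed from each other, with vessel and mesenchyme sums of 65.3, 204 and 169 CPM and shares of *Gm42418* of 2.53%, 24.5% and 42.6% in replicates 1, 2 and 3. The part of these cells and of these differences between pools in the *Atf3* level was not tested.

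**Figure D5:**
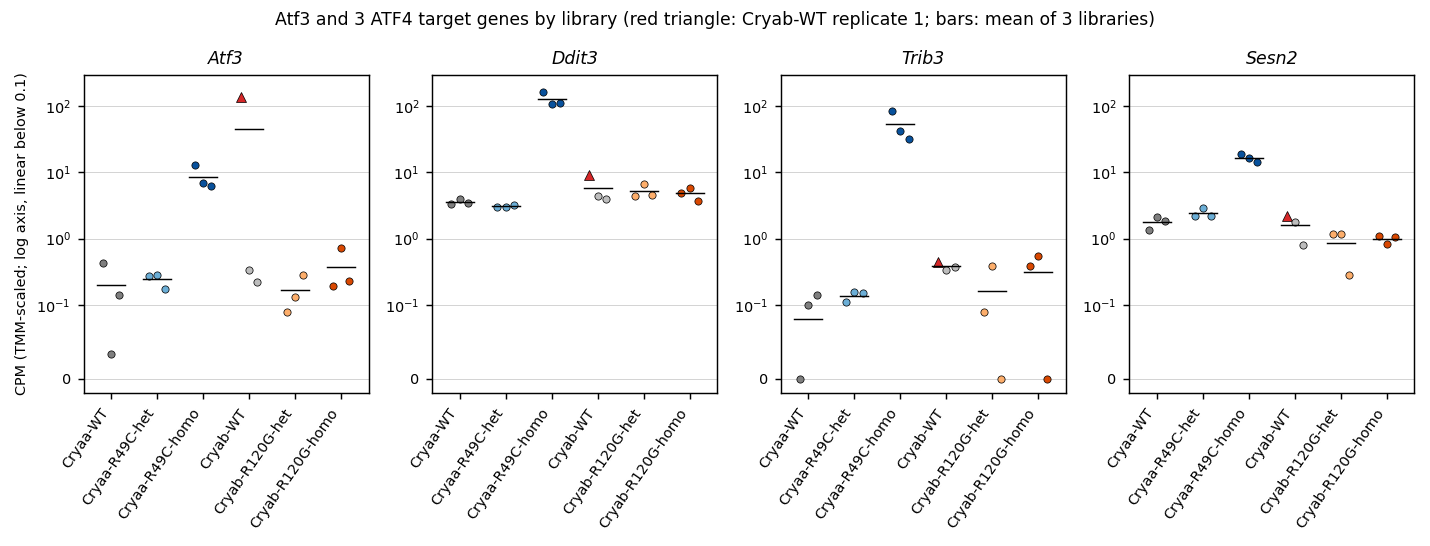
CPM of *Atf3*, *Ddit3*, *Trib3* and *Sesn2* in every library by group, on an axis that is logarithmic above 0.1 and linear below it, with a bar at the mean of each group of 3. The 3 *Cryaa*-R49C-homo pools stand above the other 2-day pools for *Atf3* (6.19 to 12.7 CPM) and *Ddit3* (109 to 166 CPM), and *Cryab*-WT replicate 1 (red triangle) stands above them for *Atf3* alone of these 4 genes.

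Of 30 further early-response genes tested in *Cryaa*-R49C-homo against *Cryaa*-WT on 18 libraries, 3 passed, against 9.79% of all genes, and their median log2 fold change was 0.32 against 0.0047. Among them 1 rose, the polo-like kinase gene *Plk3* (log2 fold change 2.34, adjusted p = 0.00607 by edgeR's quasi-likelihood test), and 2 fell, *Gadd45b* (-1.99, adjusted p = 1.69e-05) and the matrix protein gene *Ctgf* (-1.53, adjusted p = 0.0364). Of 22 upstream regulators 1 passed, *Map2k1*, a MAP kinase kinase, which rose by 0.85. Of 8 heat shock genes 2 passed, *Hspb1* (-5.51) and *Dnajb1* (-1.86), which fell. All of these counts stand beside the same 9.79% of all genes. *Cryab*-WT replicate 1, where 28 of the 30 further early-response genes lay more than 1 log2 unit above the other 2 *Cryab*-WT libraries, stayed in this fit. The list was not counted in a fit without it.

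Among 14-day lenses, none of the 10 genes passed in any comparison. *Cryab*-R120G-homo was compared with *Cryab*-R120G-het on all 18 libraries, where 0% of all genes passed. An unadjusted p under 0.05 was reached by 0 of the 10 with edgeR, against 1.96% of all genes, and by 0 with DESeq2. DESeq2 gave no adjusted p for 8 of the 10. *Klf4* was at 0.450, 0.130 and 0.280 CPM in het and 0.458, 0.605 and 0.612 CPM in homo, which separated, as did 6.86% of all genes. Its log2 fold change was 1.01 ± 2.11 (adjusted p = 1 by edgeR's quasi-likelihood test). It was 1.01 ± 0.71 (adjusted p = 1) in the same test without *Cryab*-WT replicate 1 in the fit, where 0% of all genes passed again.

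Against the other two *Cryab*-WT libraries, 0 of the 10 genes passed in *Cryab*-R120G-het, where 0.00717% of all genes did, and 0 in *Cryab*-R120G-homo, where 0.0933% did. An unadjusted p under 0.05 was reached by 0 of the 10 in either comparison with edgeR, against 5.29% and 8.57% of all genes, and by 0 with DESeq2. *Fos*, at 0.467 and 0.297 CPM in the WT libraries, was at 0.589, 1.26 and 0.994 CPM in homo, and the log2 fold change was 1.30 ± 2.21 (adjusted p = 0.999). *Klf4*, at 0.333 and 0.148 CPM in WT, had a log2 fold change of 1.17 ± 0.82 in homo (adjusted p = 0.859). These were the 2 genes of the 10 whose WT and homo pools separated, against 22.1% of all genes. In *Cryab*-R120G-het none did, against 21.1%. With *Cryab*-WT replicate 1 put back into its group, the direction turned, and the values in homo were -8.21 for *Fos* and -4.61 for *Klf4*, still with adjusted p of 0.625 and 0.634.

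*Cryab*-WT at 14 days was set beside *Cryaa*-WT at 2 days, a contrast in which age and line cannot be told apart. Without *Cryab*-WT replicate 1, 22.9% of all genes and 0 of the 10 passed. An unadjusted p under 0.05 was reached by 35.9% of all genes and by 3 of the 10 with edgeR, and by 5 of the 10 with DESeq2. *Ier2* came closest, at 0.467 and 0.593 CPM against 1.96, 1.69 and 3.15 CPM (log2 fold change -2.09 ± 0.78, adjusted p = 0.0603 by edgeR's quasi-likelihood test), and it passed with DESeq2 (-2.13, adjusted p = 0.0136). *Junb* (-2.44 ± 1.15), *Klf4* (-1.74 ± 0.76) and *Fos* (-2.82 ± 1.99) had adjusted p of 0.131, 0.104 and 0.343. For *Fos* the direction turned without *Cryaa*-WT replicate 2, to 0.0053. The median over the 10 was -1.23 against -0.084 over all genes, and -0.37 without that library. Cell type markers moved in the same contrast, with 12 of 12 macrophage markers lower (median -3.90), 10 of 13 vessel and mesenchyme markers lower and 2 higher (-2.31), 6 of 11 pigment and ciliary markers lower (-2.40) and 7 of 10 lens fibre markers higher (1.65), and their part in the values of the 10 genes was not tested. The TMM factors spanned 1.20 to 2.26 over the 2-day libraries and 0.488 to 0.774 over the 14-day libraries. With totals alone as the scale, the median of all genes in this contrast was -1.62 and the median over the 10 was -2.71. With *Cryab*-WT replicate 1 put back, the sign turned, to 6.70 for *Fos*, 6.07 for *Junb*, 3.37 for *Ier2* and 4.03 for *Klf4*.

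Whether the effect of homo against het differed between the lines was tested as an interaction. None of the 10 passed, against 1.56% of all genes. An unadjusted p under 0.05 was reached by 0 of the 10 with edgeR, against 13.1% of all genes, and by 0 with DESeq2. DESeq2 gave no adjusted p for 8 of the 10. On 17 libraries 1 of the 10 reached an unadjusted p under 0.05 with edgeR, against 13.9% of all genes. For *Atf3* the difference (*Cryab* minus *Cryaa*) was -3.94 ± 4.18 (adjusted p = 0.729 by edgeR's quasi-likelihood test), or -3.94 ± 1.04 with adjusted p = 0.0589 on 17 libraries. For *Cyr61* it was 2.54 ± 2.38 (adjusted p = 0.688). *Atf3* stayed at 1 to 4 counts in *Cryab*-R120G-het and at 3, 13 and 3 counts in *Cryab*-R120G-homo.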

How the data were processed

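The data are poly-A RNA-seq of 18 libraries, sequenced as single reads of 50 bases. The authors aligned the reads to the GRCm38 assembly with STAR 2.0.4b, took genes from Ensembl release 76 and deposited featureCounts 1.4.5 read counts per gene, without normalization. RPKM values that the authors deposited were used only to derive each gene's length. The deposited log2 values were not used. The table has 41422 lines for 40800 genes, and repeated lines were kept once.

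Samples were grouped by their titles, because another label of 6 *Cryab* libraries gives the *Cryaa* genotype instead. Genes were filtered with filterByExpr (13938 kept of 26547 with a count), because with every gene kept the prior degrees of freedom were infinite. One model with 6 groups was fitted with edgeR 4.0.16 in R 4.3.3 (TMM, robust quasi-likelihood test, Benjamini-Hochberg adjustment over all genes, threshold 0.05). Log2 CPM used a prior count of 2. Contrasts with *Cryab*-WT left out replicate 1, the library whose high level had chosen the genes. The main tests used no pairing, and the replicate number entered only as a block in an alternative fit. Same-numbered libraries of *Cryab*-WT and *Cryab*-R120G-homo deviated together (r = 0.277, 0.176 and 0.156). Values above 0 were also found between *Cryaa*-WT and *Cryaa*-R49C-homo (0.0436, 0.162 and 0.153) and between *Cryab*-WT and *Cryab*-R120G-het (0.349, 0.00818 and 0.131). The script was tested on simulated counts. The genes, lists and tests were chosen with earlier results of these data known, so no list counts as independent evidence. Named genes were the 10 and, from each list in a comparison, at most the 3 past the threshold with the lowest adjusted p. Those listed as most alike, and examples picked after their values were seen, were also named. Promoters came from RefSeq and gene models from GENCODE vM21. Intervals cover counting error only. Depth was 14272174 to 29639719 counts per library.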

Additional observations from a re-analysis of the deposited data

How the results depend on the processing

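Of 346 recomputed log2 fold changes, 339 kept their direction. Those that turned came from putting *Cryab*-WT replicate 1 back, to -8.21 (*Fos*) and -4.61 (*Klf4*) in *Cryab*-R120G-homo against *Cryab*-WT and to 6.70 (*Fos*), 6.07 (*Junb*), 3.37 (*Ier2*) and 4.03 (*Klf4*) in *Cryab*-WT against *Cryaa*-WT, and from leaving out *Cryaa*-WT replicate 2, which took *Fos* in the latter to 0.0053, the upper end of a range from -3.33 over the single libraries left out. In the 2-day contrasts the SE of *Jun* fell from 1.01 to 0.30 against WT when *Cryab*-WT replicate 1 was left out of the fit, and that of *Atf3* from 1.93 to 0.53, and in *Cryab*-R120G-homo against *Cryab*-R120G-het that of *Klf4* fell from 2.11 to 0.71, so the 18-library fit limits what these contrasts can show for the 10 genes.

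Of the 10 genes, the number past the threshold was 0 in all 8 comparisons in the main test and with RLE size factors. In the order of the comparisons in the text (*Cryaa*-R49C-het against WT, homo against WT, homo against het, *Cryab*-R120G-homo against het, het against WT, homo against WT, *Cryab*-WT against *Cryaa*-WT, and the difference between lines), it was 6, 4, 6, 0, 0, 0, 5 and 2 with no filter on low counts, and 0, 1, 2, 0, 0, 0, 1 and 0 with the likelihood-ratio test. Over all genes, no filter called 17, 1498, 1419, 15, 281, 506, 3287 and 489 of 26547. The likelihood-ratio test called 15, 2886, 3051, 2, 117, 453, 4451 and 1175 of 13938. With *Cryaa* libraries alone, the number of the 10 was 1 in homo against WT (1032 of all genes) and 1 in homo against het (686). For *Cryab*-WT against *Cryaa*-WT the number of the 10 was 6 with library size alone (11008 of all genes), 1 with DESeq2 (3461) and 4 with replicate 1 put back (3237). With *Cryab*-WT replicate 1 left out it was 2 and 1 in homo against WT and against het. Leaving out 1 library at a time gave 0 throughout, and up to 3 and 2 in those when *Cryab*-WT replicate 1 was also left out, alternatives chosen after seeing the data. In the 3-gene case, without *Cryaa*-R49C-homo replicate 1, *Klf4* (adjusted p = 0.00129) and *Zfp36* (-0.91, adjusted p = 0.0429) joined *Atf3*.

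With the replicate number as a block, *Cryab*-WT against *Cryaa*-WT gave 3 of the 10 (*Junb*, *Ier2* and *Klf4*), against 2995 of all 13938 genes tested. In *Cryab*-R120G-homo against *Cryab*-WT, a replicate block raised all genes past the threshold from 13 to 77 and changed no call of the 10. With the block, *Cryab*-R120G-het against WT gave 0 genes.

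Over all genes, the main numbers past the threshold were 1, 1365, 1160, 0, 1, 13, 3192 and 217 in the same order. No filter gave 17, 15, 281, 506 and 489 in the first, the fourth, the fifth, the sixth and the last. DESeq2 gave 2, 24, 252 and 375 in the first, the fifth, the sixth and the last. The likelihood-ratio test gave 15, 2886, 3051, 2, 117, 453 and 1175 in all but the seventh. Library size alone gave 2138, 3, 2, 11008 and 137 in the second, the fifth, the sixth, the seventh and the last, and put 88.1%, 79.9%, 50.0% and 1.19% of the calls of the second, the third, the sixth and the seventh on the higher side, against 49.7%, 56.4%, 76.9% and 47.1% with TMM. The libraries of 1 line alone gave 0, 686 and 0 in the first, the third and the fifth, and *Cryab*-WT replicate 1 put back gave 7 in the sixth. Leaving out 1 library gave 0 to 2, 746 to 3085, 460 to 4102, 0 to 0, 0 to 7, 0 to 107, 1282 to 2785 and 110 to 2100. The upper ends of the second, the third and the last came without *Cryaa*-R49C-homo replicate 1 and that of the sixth without *Cryab*-R120G-homo replicate 3. The cause of these differences was not tested.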
